A study of Mus musculus with 16 samples.

Results

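The genes of sterol and fatty acid synthesis were examined in RNA of mouse peritoneal macrophages. The members are 34 named genes, chosen by symbol: 19 of the sterol arm, 10 of the fatty acid arm and 5 regulators. Of these, 30 had at least 1 probe on the array, 38 probes in all, and 23 passed the filter on dim probes, among 7510 genes tested on the whole array. Acat2, Tm7sf2, Srebf2 and Scap had no probe named here and were not analysed here.

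Macrophages make cholesterol from acetyl-CoA through mevalonate, farnesyl diphosphate and squalene. The transcription factor SREBP2 raises the genes of that route when membrane cholesterol is low, and SREBP1, whose gene is a target of the sterol-sensing LXR receptors, raises the genes of fatty acid synthesis and desaturation. Both factors are held in the endoplasmic reticulum by SCAP and the INSIG proteins when sterols are plentiful, so cells loaded with cholesterol are known to keep the sterol route low.

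RNA was hybridised to 16 Illumina Mouse Ref-8 v1.1 BeadChip arrays. Of the 12 animals, 6 were labelled Apoe-/- SR-uPA+/0, with a transgene that overexpresses urokinase (uPA) in macrophages, and 6 were labelled Apoe-/- nontransgenic. The other 4 arrays held pooled RNA: all 6 animals of a genotype were mixed, and each of these 2 pools was hybridised 2 times. Every animal was female, lacked Apoe, ate a Western diet for 10 weeks from 5 weeks of age and was 15 weeks old. Thioglycollate drew the cells into the peritoneum, and 5 days after the injection the cells were plated and those still attached after 2 h were lysed. All groups therefore share the hyperlipidaemic background, the elicitation and the culture step. In such a bulk sample fewer cells of a type and less RNA per cell cannot be told apart.

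Values are the authors' deposited intensities, in linear units after their background subtraction, and differences are on a normalized log2 scale on which changes of dim genes are understated. A probe counted as above noise on an array when it exceeded a limit of 56.8 to 56.9 units. Levels are not compared between genes, since each probe has its own response, and with 6 animals per genotype the arrays are few.

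Some facts of the whole series bear on these genes. Plau, which encodes uPA, did not separate the labels (log2 difference -0.10, SE 0.42, limma adjusted p = 0.967), with readings of 513 to 3527 in nontransgenic and 536 to 2907 in transgenic animals. No source used here says whether the probe reads the transgene's own transcript, and genotypes are throughout those on the labels. The arrays of transgenic 1 and transgenic 6 resembled the others least, with mean correlations to the other animals of 0.970 and 0.973 against 0.975 to 0.980 for the rest. Of 8 macrophage markers 6 had a probe, and their summed intensity was 76333 to 86591 in nontransgenic and 73331 to 89656 in transgenic animals. Most of that sum came from Lyz2, which read 45823 to 61361 over the 12 animals. The scavenger receptor gene Msr1, a defining macrophage marker, was below noise on all 12. The mean of the neutrophil markers differed by 1.08 on the log2 scale, transgenic minus nontransgenic, over 10 tested genes, of which 4 passed the test (summed intensity 5122 to 18834 in nontransgenic and 12894 to 46449 in transgenic), and that of fibroblast and mesothelial markers differed by -0.74 over 12 genes, of which 4 passed (7543 to 15038 and 1461 to 6423). Elane, Mpo, Ngp and Mmp8 of the 15 neutrophil markers, and Lum and Krt19 of the 15 fibroblast and mesothelial ones, were below noise on all 12 animal arrays. The adipocyte markers Lep, Plin1 and Retn were below noise on all 12 animal arrays, and Adipoq exceeded it on 3. Of the same list, Cidec exceeded noise on 11 animal arrays, and Lipe and Adipor2 exceeded it on all 12.

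Promoter sequence was available from RefSeq (build GRCm38.p6) for 27 of the 34 members (not for Fdps, Fdft1, Sqle, Stard4, Scd1, Scd2 and Fads1), as windows from 250 bases before to 50 after each start site. The windows were searched on both strands for 4 motifs: the sterol regulatory element written as TCACNCCAC, the CCAAT box bound by NF-Y, which is known to act beside SREBP, the GC box GGGCGG and the E-box CACGTG. Of 15 sterol arm genes with a window 14 held a CCAAT box, all but Acat2, as did 4 of 7 fatty acid arm genes and 4 of 5 regulators, against 41.06% of 27025 genes. The GC box was found in 14 of 15 sterol genes, 4 of 7 fatty acid genes and 5 of 5 regulators, against 38.2% of all genes. The E-box was found in 3 sterol genes, no fatty acid gene and 2 of 5 regulators (Scap and Insig1), against 8.093%. The sterol regulatory element occurred only in Hmgcs1 among the members, against 1.436% of all genes; a window without a match says only that these letters are not in it. Stretches of 4 promoters are shown. Hmgcs1 and Cyp51 correlated with Fdps between animals (r = 0.64 and 0.81, genotype means removed), and Msmo1 with Stard4 (0.61). Among themselves these genes followed each other less: Hmgcs1 with Msmo1 had -0.04, Cyp51 with Msmo1 0.29 and Hmgcs1 with Cyp51 0.37. Fasn, fatty acid synthase, stands here for the fatty acid arm, although its mean r with the other 7 tested genes of that arm was the lowest, at -0.11. Capitals mark CCAAT boxes, which read ATTGG on the opposite strand, and in Hmgcs1 also the sterol regulatory element; the Fasn stretch has a pair of CCAAT boxes that overlap on opposite strands.
Hmgcs1 (chr13:119690169-119690263, plus strand): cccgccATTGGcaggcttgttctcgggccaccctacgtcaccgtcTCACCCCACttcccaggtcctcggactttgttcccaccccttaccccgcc
Cyp51 (chr5:4104698-4104771, minus strand): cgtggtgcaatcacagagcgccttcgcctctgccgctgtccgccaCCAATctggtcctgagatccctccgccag
Msmo1 (chr8:64733584-64733678, minus strand): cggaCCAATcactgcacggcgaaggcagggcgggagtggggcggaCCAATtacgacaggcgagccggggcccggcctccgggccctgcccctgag
Fasn (chr11:120824557-120824651, minus strand): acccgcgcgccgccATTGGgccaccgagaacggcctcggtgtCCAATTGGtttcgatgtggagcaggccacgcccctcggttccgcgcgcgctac

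The first comparison asked whether the transgene label went with a different level of these genes. No member passed the limma test in either direction, of 14 sterol, 8 fatty acid and 1 regulator gene tested, with Benjamini-Hochberg adjusted p from 0.557 to 0.991. Over the whole array 77 of 10534 probes passed, or 0.731%. At an unadjusted p under 0.05 there was 1 member, Acss2, or 1 of 23 genes, where the array had 899 probes, or 8.53%. The values of the genotypes overlapped for every tested member. How often genotypes overlap over the whole array was not counted, so this describes the values and is no result about these genes. The median log2 difference, transgenic minus nontransgenic, was 0.0022 over the sterol arm and -0.17 over the fatty acid arm, beside 0.0077 over all tested genes. Among sterol genes 7 differences lay above 0 and 7 below; among fatty acid genes 2 lay above and 6 below. The 95% intervals of the members show which differences these arrays could have missed, since a p above the threshold does not show equal levels.

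**Figure D1:**
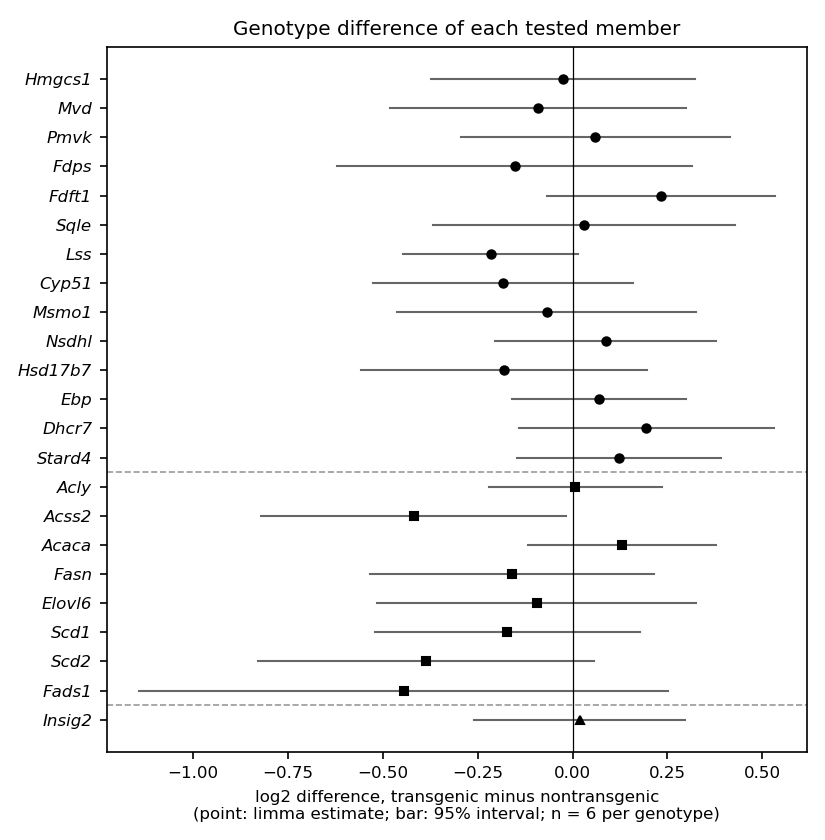
Log2 difference between genotypes (x axis, transgenic minus nontransgenic, log2 units) for each tested member (y axis), with limma estimates as points and 95% intervals as bars. The interval of Acss2 alone lies wholly below 0, at -0.82 to -0.02, and that of Fads1 is the widest, at -1.14 to 0.25.

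Of the regulators, Insig2 gave clear signal, and Srebf1 and Insig1 were at or near noise. Srebf1, the gene of SREBP1, had 1 probe that read from -75.2 to -28.0 units over the 12 animals and was below noise on all 16 arrays. The platform annotation gives no split by isoform, so this says only that this probe gave no signal. The 3 probes of Insig1, a sterol-regulated anchor of SREBP and itself a well known SREBP2 target, were above noise on 2, 0 and 1 of the 12 animals, with readings up to 77.6. Insig2, the other anchor, was read by 2 tested probes. The brighter one read 689, 728 and 835 (lowest, median and highest) in nontransgenic and 584, 717 and 1097 in transgenic animals, a log2 difference of 0.02 (SE 0.13, 95% interval -0.26 to 0.30, limma adjusted p = 0.980). The transgenic values span the nontransgenic range on either side. Over the 12 animals, with genotype means removed, the 2 Insig2 probes correlated with r = 0.47.

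In the early part of the sterol route, from acetoacetyl-CoA to farnesyl diphosphate, Hmgcs1, Mvd, Pmvk and Fdps were measured. Hmgcs1, cytosolic HMG-CoA synthase, read 3116, 3842 and 4976 (lowest, median and highest) in nontransgenic and 2325, 4130 and 4928 in transgenic animals. Means were 3891 ± 644 and 3891 ± 924 (SD, n = 6), a log2 difference of -0.03 (SE 0.16; 95% interval -0.37 to 0.32; limma adjusted p = 0.979). The ranges overlapped, and the lowest value was that of transgenic 4. Fdps, farnesyl diphosphate synthase, read 731, 1265 and 1546 in nontransgenic and 571, 1058 and 1855 in transgenic animals. Its log2 difference was -0.15 (SE 0.22), within -0.62 to 0.32 at 95% (limma adjusted p = 0.893). Transgenic 6 was highest and transgenic 4 lowest, so 1 genotype held both ends of the range. The mevalonate-stage enzymes Mvd (a decarboxylase) and Pmvk (a kinase) had log2 differences of -0.09 and 0.06. Mvk, mevalonate kinase, and Idi1, the isomerase before Fdps, were below noise on all 16 arrays.

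The squalene and lanosterol steps came next. Fdft1, squalene synthase, was dim: it exceeded noise on 2 nontransgenic and 4 transgenic animals, with 2.01, 41.0 and 89.5 units (lowest, median, highest) in nontransgenic and 43.8, 63.8 and 78.8 in transgenic animals. Its log2 difference of 0.23 (SE 0.14; limma adjusted p = 0.700) therefore rests on values near noise. Sqle, squalene epoxidase and a step known to limit flux, read 165, 245 and 430 (lowest, median, highest) in nontransgenic and 209, 248 and 501 in transgenic animals. Sqle differed by 0.03 (SE 0.19; interval -0.37 to 0.43; limma adjusted p = 0.979), and a second Sqle probe stayed below noise everywhere. Lss, lanosterol synthase, had the smallest p of the sterol arm. It read 150, 196 and 250 in nontransgenic and 129, 157 and 196 in transgenic animals, with means of 197 ± 32.9 and 156 ± 24.8 (SD, n = 6). Transgenic minus nontransgenic came to -0.22 on the log2 scale (SE 0.11; interval -0.45 to 0.02), with a limma adjusted p of 0.622 and an unadjusted exact permutation p of 0.0390. The ranges overlapped. The repeat hybridisations of the nontransgenic pool read 96.1 and 171 for Lss, the first of them below every animal.

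None of the enzymes after lanosterol passed. Cyp51, lanosterol demethylase, read 85.5, 132 and 189 in nontransgenic and 36.7, 126 and 141 in transgenic animals (lowest, median, highest). Its log2 difference was -0.18 (SE 0.16; limma adjusted p = 0.817). Transgenic 4, the lowest, was under the noise limit. Msmo1, the methylsterol monooxygenase, read 2180, 2990 and 3619 in nontransgenic and 1597, 2980 and 4317 in transgenic animals, a difference of -0.07 (SE 0.19; limma adjusted p = 0.953). Here the transgenic animals had the lowest value, in transgenic 2, and the highest, in transgenic 3. Dhcr7, the reductase that ends the route, exceeded noise on 9 of 12 animals and read 28.2, 71.6 and 113 in nontransgenic and 47.1, 84.4 and 174 in transgenic animals, a difference of 0.19 (SE 0.16; limma adjusted p = 0.804). Nsdhl and Ebp, the sterol dehydrogenase and isomerase, had values of 0.09 and 0.07, and Hsd17b7, the sterol ketoreductase, -0.18. Stard4, a sterol carrier protein, had 0.12. Sc5d, the desaturase before Dhcr7, was below noise on all 16 arrays.

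In the fatty acid arm, acetyl-CoA supply and chain building came first. Acly, ATP citrate lyase, which makes cytosolic acetyl-CoA from citrate, held the narrowest interval. It read 6756, 8278 and 9006 (lowest, median, highest) in nontransgenic and 7144, 7843 and 8991 in transgenic animals, a log2 difference of 0.01 (SE 0.11; interval -0.22 to 0.24; limma adjusted p = 0.991). Acss2, which makes acetyl-CoA from acetate, read 105, 152 and 205 in nontransgenic and 14.4, 81.4 and 225 in transgenic animals. The means were 151 ± 34.6 and 96.5 ± 69.7 (SD, n = 6), a difference of -0.42 (SE 0.19; interval -0.82 to -0.02), with a limma adjusted p of 0.557 and an exact permutation p of 0.0801. Most transgenic values lay under the nontransgenic range, but transgenic 6 was the highest of all 12. The difference was -0.58 (adjusted p = 0.112) without transgenic 6 and -0.27 (adjusted p = 0.739) without transgenic 3. Repeats of the nontransgenic pool read 117 and 42.9, and the other Acss2 probe was below noise throughout.

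Acaca, acetyl-CoA carboxylase, read 241, 277 and 373 in nontransgenic and 264, 321 and 426 in transgenic animals, a difference of 0.13 (SE 0.12; limma adjusted p = 0.822). Fasn, fatty acid synthase, read 103, 191 and 278 in nontransgenic and 98.6, 158 and 280 in transgenic animals, a difference of -0.16 (SE 0.18; interval -0.53 to 0.21; limma adjusted p = 0.852). The Fasn ranges were nearly the same. Elovl6, the elongase of palmitate, exceeded noise on 3 nontransgenic and 2 transgenic animals, with 10.0, 43.9 and 75.4 units in nontransgenic and -14.3, 23.0 and 112 in transgenic animals. Its log2 difference was -0.09 (SE 0.20; limma adjusted p = 0.929), and the transgenic values again held both ends of the range. Me1, malic enzyme, a source of NADPH, exceeded noise on 1 of 12 animals and was not tested.

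Of the fatty acid arm, the desaturases Fads1 and Scd2 had the largest SD between animals, 0.71 and 0.42 on the log2 scale. Scd2, a stearoyl-CoA desaturase that makes oleate and palmitoleate, read 2713, 4189 and 5744 in nontransgenic and 1813, 3090 and 4932 in transgenic animals (lowest, median, highest), with means of 4126 ± 1113 and 3174 ± 1025 (SD, n = 6). The genotypes differed by -0.39 on the log2 scale (SE 0.21; interval -0.83 to 0.06), with a limma adjusted p of 0.651 and an exact permutation p of 0.145. The groups overlapped over most of their range. Without transgenic 1, the lowest, it was -0.24. Scd1, its close relative, had -0.17 (SE 0.17; limma adjusted p = 0.836), from 372 to 753 units in nontransgenic and 378 to 747 in transgenic animals.

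Fads1, the delta-5 desaturase that makes arachidonate, had 1 exceptional reading. In nontransgenic animals it read 1689, 2240 and 3376 (lowest, median, highest). In transgenic animals it read 392 in transgenic 1 and 1952 to 2503 in the other 5. The reading of transgenic 1 lay 1.87 log2 units, or 3.66-fold, under the lowest of the other 11 animals on the normalized scale. With it, Fads1 differed by -0.45 on the log2 scale (SE 0.33; interval -1.14 to 0.25; limma adjusted p = 0.781), and without transgenic 1 it was -0.07 (adjusted p = 0.928). The transgenic pool, which held RNA of transgenic 1, read 2647 and 2595. Both readings lay above each of its 6 animals, the highest of which read 2503, and above their mean (1946 ± 788, SD). Pool and animal arrays thus disagree for this probe, and the cause was not tested. Fads2, the partner desaturase, was below noise on all 16 arrays.

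**Figure D2:**
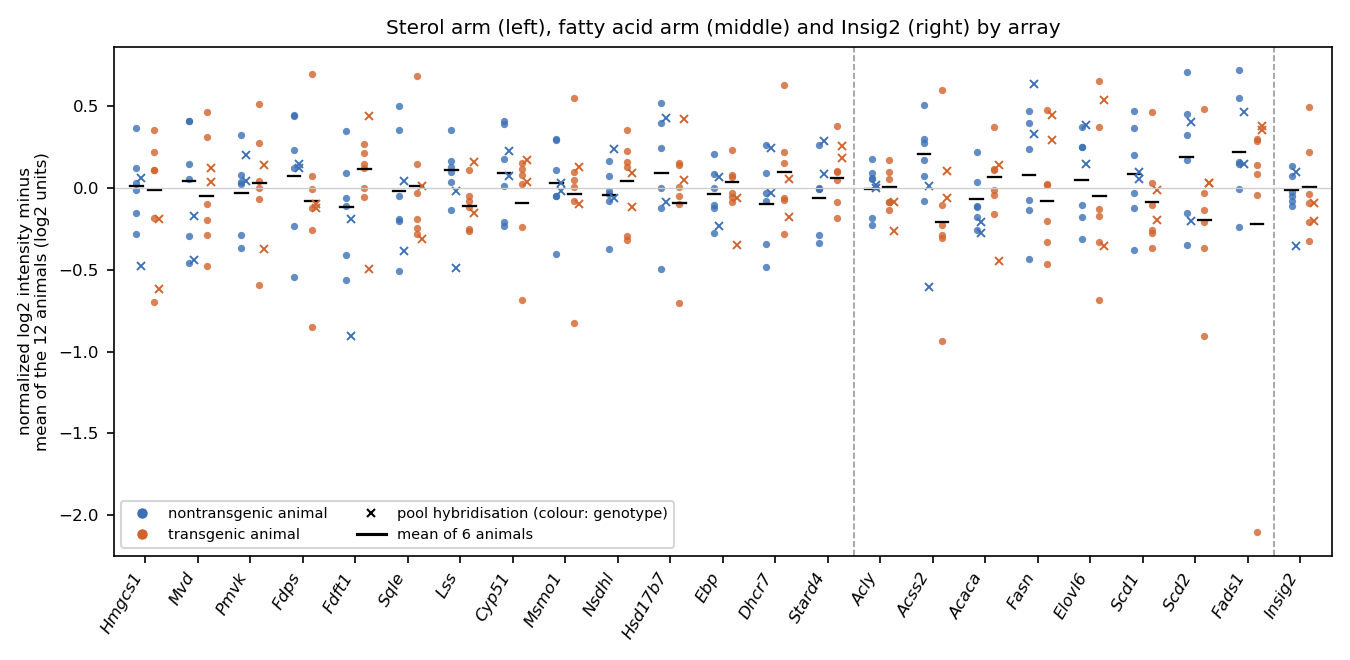
Normalized log2 intensity relative to the mean of the 12 animals (y axis, log2 units) for each tested member (x axis), with 1 circle per animal, a bar at the mean of 6 animals and crosses for the pool hybridisations. The plotted values of the genotypes overlap, and Fads1 in transgenic 1 lies far below the other 11 animals (392 units against 1689 or more).

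The mean of the fatty acid arm read lower in transgenic animals, a difference given here without a test because the members were chosen with results known. Of the markers of other cells, those of fibroblasts and mesothelium moved with it most closely. The mean of its 8 tested genes, relative to the 12 animals, was 0.10 ± 0.10 in nontransgenic and -0.10 ± 0.23 in transgenic animals (SD, n = 6, log2), against 0.0043 ± 0.12 and -0.0043 ± 0.14 for the 14 sterol genes. Transgenic 1 (-0.40) and transgenic 3 (-0.28) were lowest, and transgenic 6 (0.21) was the highest of all animals, so the ranges overlapped. The fatty acid mean was 0.14 and 0.04 on the arrays of the nontransgenic pool and 0.07 and 0.04 on those of the transgenic pool, so the pools lay closer together than the means of their animals. Without Fads1 the fatty acid means were 0.08 ± 0.09 and -0.08 ± 0.21. With genotype means removed, the fatty acid mean had r = 0.71 with the fibroblast and mesothelial marker mean and r = -0.32 with the neutrophil mean. It had r = -0.92 with the second principal component of all tested probes (16.2% of variance, n = 12 animals, all sharing 1 normalization). Without transgenic 1 and transgenic 6 these values were 0.48, -0.41 and -0.80, in the same order. With the dendritic, macrophage, adipocyte and B cell marker means the fatty acid mean had r = -0.35, 0.27, 0.20 and -0.01. Those were -0.20, -0.01, 0.06 and 0.37 without transgenic 1 and transgenic 6. When the marker means of neutrophils and of fibroblasts entered the fit as terms, the median difference of the fatty acid arm was 0.24 in place of -0.17. Both marker means themselves differed between genotypes (1.08 and -0.74), so this fit cannot separate genotype from them well. Single genes moved far in it, such as Fads1 to 0.81 and Msmo1 to -0.99. The part of other cells in the fatty acid difference was not tested. The sterol mean had r = -0.69 with the dendritic cell marker mean (2 tested genes), -0.50 with that of B cells (3 genes) and 0.51 with the neutrophil mean. It had 0.40 with the fibroblast and mesothelial mean (0.24 without transgenic 1 and transgenic 6) and -0.25 with the macrophage mean. With the first principal component the sterol mean had -0.46, or -0.87 without transgenic 1 and transgenic 6. With the second it had -0.57, or -0.39 without them.

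The 2 arms were then compared by how their genes varied together between animals. Within the sterol arm the median Pearson r over 91 gene pairs was 0.13, with genotype means removed. It was 0.12 over the 28 pairs of the fatty acid arm and 0.13 over the 112 pairs that joined a sterol with a fatty acid gene, beside -0.00072 over all pairs of the 7510 tested genes. The medians of sterol, fatty acid and mixed pairs lay much closer together than their jackknife SEs (0.11, 0.17 and 0.12, in that order). They therefore set no order between pairs within and across the arms, and no test was run. An r of at least 0.5 was reached by 9.89% of sterol pairs, 7.14% of fatty acid pairs and 11.6% of mixed pairs, against 7.23% of all gene pairs. The arm means had r = 0.38 with each other over 12 animals, r = 0.28 without Fads1 and r = 0.02 without transgenic 1 and transgenic 6. Without these 2 animals the median r was 0.10 for sterol pairs, 0.09 for fatty acid pairs and 0.05 for mixed pairs. The genes share array, normalization and cell makeup, so these are descriptions.

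**Figure D3:**
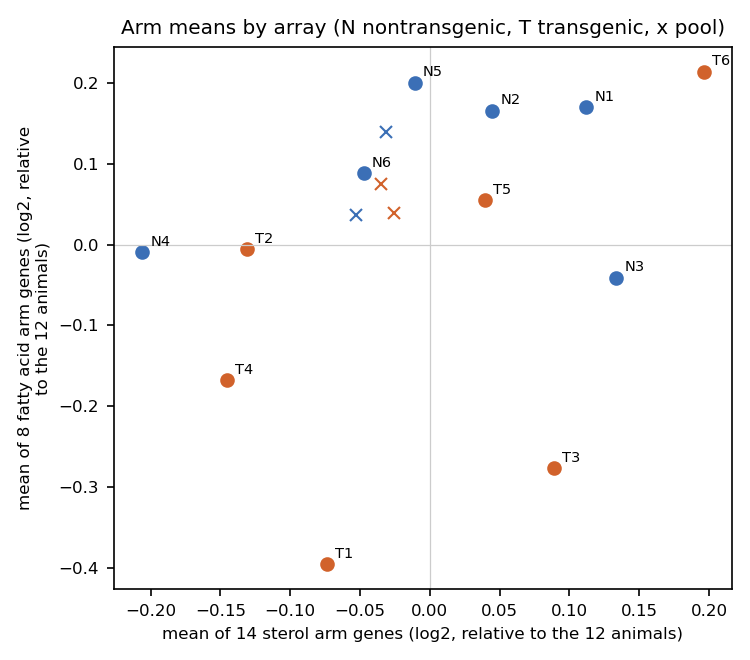
Mean of the 8 fatty acid arm genes (y axis) against the mean of the 14 sterol arm genes (x axis), in log2 units relative to the 12 animals, with N and T marking nontransgenic and transgenic animals and crosses the pools. Transgenic 1 and transgenic 3 sit lowest on the fatty acid axis (-0.40 and -0.28), and transgenic 6 is highest on both axes.

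The highest correlations among the sterol genes centred on Fdps, as seen after the values were known and without a test. Fdps correlated with Cyp51 (r = 0.81), Sqle (0.73), Stard4 (0.70) and Hmgcs1 (0.64), and Sqle with Stard4 (0.75), over 12 animals with genotype means removed. Links of the same genes to the fatty acid arm lay somewhat lower but in a similar range. Fdps had r = 0.73 with Elovl6 and 0.59 with Fasn, and Cyp51 had 0.61 with Fasn and 0.60 with Elovl6. Elovl6 exceeded noise on 5 of 12 animals. The animals behind the sterol values are visible in the intensities. For Fdps, transgenic 6 (1855), nontransgenic 1 (1546) and nontransgenic 3 (1537) were highest, and for Sqle the same 3 animals read 501, 379 and 430, above all others. The 2 lowest animals for Fdps were transgenic 4 (571) and nontransgenic 4 (731); nontransgenic 4 was also lowest for Sqle (165), whereas transgenic 4 read 267. For Cyp51 the lowest was transgenic 4 (36.7) and the highest were nontransgenic 3 (189) and nontransgenic 2 (185). Fdps, Cyp51, Sqle, Stard4 and Hmgcs1 were picked from 231 pairs after their values were seen. The 10 pairs among them ranged from 0.19 to 0.81, and 5 reached 0.5; Cyp51 had r = 0.32 with Sqle and 0.36 with Stard4. Without transgenic 1 and transgenic 6 the 10 ranged from -0.03 to 0.85, with Hmgcs1 and Stard4 at -0.03.

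Other pairs ran in opposite directions. Fdft1 opposed Stard4 (r = -0.84) and Sqle (-0.63), but it exceeded noise on only 6 of 12 animals. In the fatty acid arm Scd2 opposed Fasn (r = -0.73). Nontransgenic 4 had the highest Scd2 (5744) of all animals and a Fasn of 103, close to the lowest (98.6, in transgenic 3). Transgenic 1 had the lowest Scd2 (1813) and the highest Fasn (280), and nontransgenic 3 had the lowest Scd2 of its genotype (2713) and the next highest Fasn (278). Transgenic 3 went the other way, with the lowest Fasn and the second lowest Scd2 of all 12 (2698). Scd2 also opposed Hsd17b7 (r = -0.72) and Cyp51 (-0.66).

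**Figure D4:**
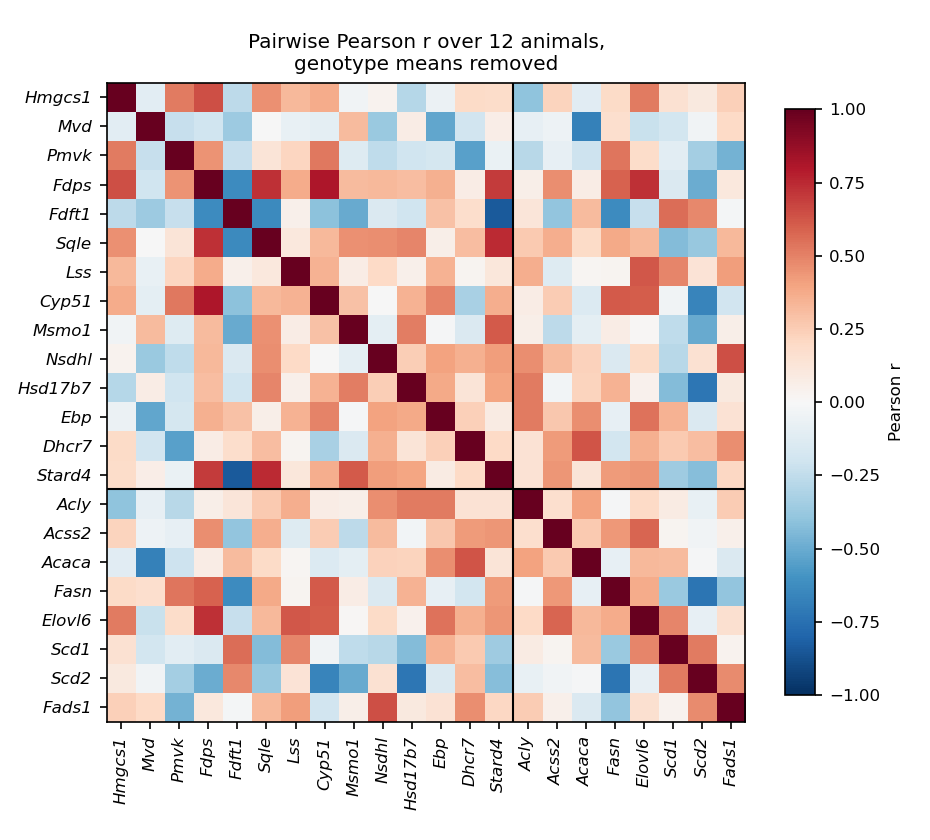
Pearson r over 12 animals, genotype means removed, for each pair of 22 tested genes, sterol genes first; lines divide the arms and colour runs from -1 (blue) to 1 (red). Fdps shows high values with Cyp51 (0.81), Sqle (0.73) and Elovl6 (0.73), Cyp51 has lower ones with Sqle (0.32) and Stard4 (0.36), and Scd2 is negative with Fasn (-0.73).

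Of a list of 17 gene pairs, 10 had both genes measured and were tested over the 12 animals, here with plain r and the genotype means kept in. None passed after adjustment over the 10. Hmgcs1 and Fdps had r = 0.64 (permutation p = 0.0251, adjusted p = 0.251) and Spearman's rho = 0.48 (permutation p = 0.117, adjusted p = 0.320). Leaving out nontransgenic 2 and transgenic 4, the animals farthest from the median of Hmgcs1, gave r = 0.51, and leaving out transgenic 4 alone gave 0.35. Within genotypes r was 0.29 in nontransgenic (exact permutation p = 0.576) and 0.81 in transgenic animals (exact permutation p = 0.0639). Scd1 and Scd2 had r = 0.57 (permutation p = 0.0530, adjusted p = 0.265) and rho = 0.56 (permutation p = 0.0624, adjusted p = 0.320), or r = 0.68 without nontransgenic 5 and transgenic 5. For that pair r was 0.89 in nontransgenic (exact permutation p = 0.0208) and 0.18 in transgenic animals (exact permutation p = 0.681). Fasn and Scd1 had r = -0.27 over all 12 (adjusted permutation p = 0.655), with -0.91 in nontransgenic (exact permutation p = 0.0194) and 0.23 in transgenic animals (exact permutation p = 0.617). Over the 20 tests within genotypes the smallest adjusted exact p was 0.208, and the difference between genotypes was not tested. Hmgcs1 with Sqle had r = 0.46 (adjusted permutation p = 0.426), Hmgcs1 with Acly -0.40 (0.426), Fasn with Elovl6 0.39 (0.426), Hmgcs1 with Fasn 0.20 (0.708), Fasn with Acaca -0.17 (0.708), Hmgcs1 with Scd1 0.16 (0.708) and Fasn with Acly -0.01 (0.963). Without transgenic 1 and transgenic 6, Hmgcs1 with Acly had -0.63. Fasn with Elovl6 had 0.07 when dim values were raised to the noise limit.

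Repeat hybridisations of the pools gave the error of the array itself. Over all tested genes the median SD was 0.24 between animals within genotype and 0.17 between repeats (log2), and 72.2% of genes varied more between animals. The medians were 0.31 and 0.19 for the sterol arm, where 10 of 14 genes varied more between animals, and 0.36 and 0.23 for the fatty acid arm, where 6 of 8 did. The SD between repeats rests on 2 pairs of arrays and is itself imprecise. Fdps stood out: its animals ranged from 571 to 1855 (SD 0.45), whereas its repeats read 1233 and 1215 in the nontransgenic and 1011 and 1030 in the transgenic pool (SD 0.02). Those pool readings lay close to the means of the animals, 1212 ± 329 and 1104 ± 424 (SD, n = 6). Msmo1 (0.37 between animals and 0.12 between repeats), Cyp51 (0.30 and 0.10), Stard4 (0.21 and 0.11) and Scd1 (0.31 and 0.09) also varied more between animals than between repeats. For Hmgcs1 the repeats differed as much as the animals (0.31 between animals and 0.35 between repeats), with 2720 and 3967 in the nontransgenic pool. The same held for Lss (0.15 and 0.28), Ebp (0.15 and 0.21), Acaca (0.18 and 0.30) and Fdft1 (0.25 and 0.59). It also held for Elovl6 (0.40 and 0.46) and the brighter Insig2 probe (0.22 and 0.23), but not for the other tested Insig2 probe (0.23 and 0.04). Where it held, differences between single animals could not be told from the spread of the repeats here.

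**Figure D5:**
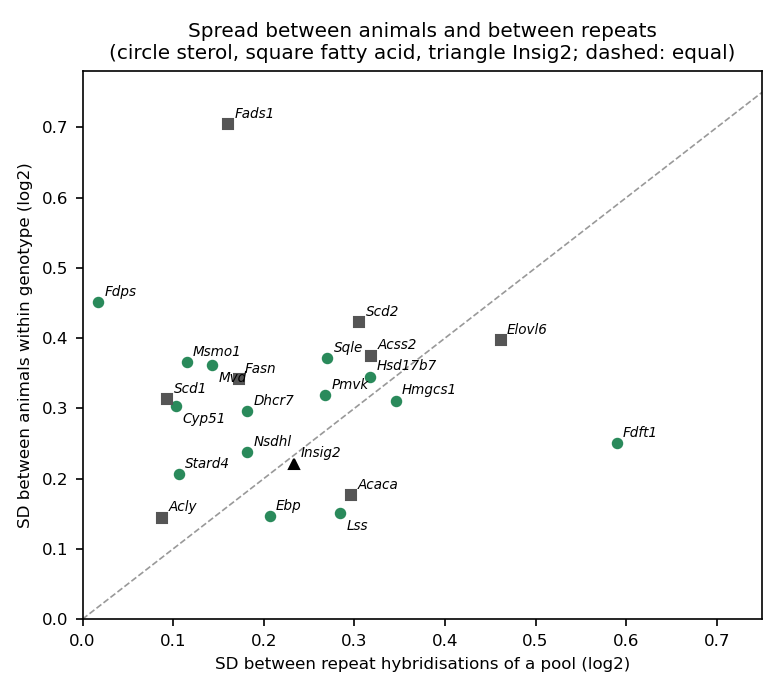
SD between animals within genotype (y axis) against SD between repeat hybridisations of a pool (x axis), both in log2 units, for each tested member; the dashed line marks equal values. Fdps (0.45 and 0.02) and Fads1 (0.71 and 0.16) lie far above the line, the latter through 1 animal, and Fdft1 lies far below it.

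Among 31 further genes of the pathway, 12 had no probe named here, 7 were below the filter and 12 were tested. None passed in either direction, with a median log2 difference of 0.0087 and no unadjusted p under 0.05. Nr1h3, which encodes the sterol-sensing receptor LXR-alpha, read 2602 to 4248 in nontransgenic and 2975 to 4511 in transgenic animals (difference 0.20, SE 0.13, limma adjusted p = 0.724). Mbtps1, the protease that first cuts SREBP, had 0.14 (SE 0.14; adjusted p = 0.841). The fatty acid elongases Elovl1 and Elovl5 had -0.13 (adjusted p = 0.799) and -0.10 (adjusted p = 0.896).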

How the data were processed

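RNA of 12 animals and 4 hybridisations of 2 pools was measured on Illumina BeadChips. The authors' deposited intensities are linear; the submitters' processing notes name BeadStudio, with no version. Values run below 0 with like quartiles on all arrays, as after background subtraction and normalization; the sources used here give no method for either. Another table (32 columns, detection p-values included) could not be tied to samples and was not used. The chip of each array is not given, so chip and genotype cannot be told apart.

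Of 24611 probes 4 controls were left out, and 19852 had 1 gene symbol in the platform annotation. Intensities went through limma's normexp (saddle, offset 16; in effect 96.9 was added), quantile normalization over the animals and log2, with the pools set on that distribution. The noise limit was 1.64 times the root mean square of an array's negative values; probes above it on at least 3 animals were tested. The brightest tested probe stood for a gene. Genotypes were compared with limma 3.58.1 in R 4.3.3 (two-sided, Benjamini-Hochberg over all tested probes, threshold 0.05), tested on simulated data, and with exact two-sided permutation over 924 assignments (smallest p 0.00216). Gene pairs used 100000 two-sided permutations, or all orders within a genotype.

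Members, lists and tests were chosen with earlier results of these data known. Named in full are the regulators and, in each arm, the 4 genes with the smallest p and the 3 with the largest SD between animals. Other members described in full, and those on which correlations turn, were chosen after their values were seen.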

Additional observations from a re-analysis of the deposited data

Results flagged for a closer look

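Of 52 groups of 6 values examined for a single distant sample (23 genes and 3 arm means, of sterol, fatty acid and fatty acid without Fads1, in each genotype), 2 were marked; chance marks about 1 group in 20. Fads1 in transgenic 1 (392 units) was separated from the next transgenic animal, transgenic 5 (1952), by 0.857 of the group's whole range. The second was Hsd17b7 in transgenic 2, at 52.6 units against 130 in transgenic 1, with a gap of 0.709 of the range; it lies under the noise limit.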

How the results depend on the processing

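No member passed under any of the 13 alternatives or without any 1 of the 12 animals, whereas the count over all probes was 77 and moved to 42 without a filter, 33 with probes above noise on all arrays, 1 with the means of neutrophil and fibroblast markers as terms, 41 without nontransgenic 2 and 45 without transgenic 4. The median difference of the fatty acid arm ranged from -0.23 to -0.11 when single animals were left out. It turned to 0.24 with the marker means as terms, which themselves differed between genotypes, and the cause was not tested. The median difference of the sterol arm lay near 0 and changed sign in 11 of these 25 fits. It ran from -0.05 to 0.05 without single animals and from -0.12 to 0.01 otherwise. The median r of sterol pairs ranged from 0.07 to 0.19 without single animals, that of fatty acid pairs from -0.0035 (without transgenic 6) to 0.22 (and -0.0083 with probes above noise on all arrays, where sterol pairs had 0.19) and that of mixed pairs from 0.02 (without transgenic 6) to 0.17. No tested gene pair passed in any fit. No paired analysis was possible because the animals carry no shared numbers and the pool arrays, whose numbers mark repeat hybridisations, enter no test. Genes near noise (Fdft1, Elovl6, Dhcr7, Acss2) are limited by signal over background.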

Other observations

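Several genes outside the pathway followed the arm means over the 12 animals, genotype means removed, and are given as a description of the highest among 7487 genes. For the sterol mean they were Brat1 (r = 0.91), the glycan-trimming glucosidase gene Mogs (0.89), the caveolin gene Cav1 (0.87), Spon2 (0.87) and Nop14 (0.86). For the fatty acid mean they were the cytochrome oxidase subunit gene Cox6b1 (r = 0.91), Tmbim4 (0.90), Ccl21b (0.88), Ei24 (0.88) and Alg14 (0.88). Ccl21b was dim, with a mean of 52.3 units, under the noise limit. The largest r of 7487 genes is high by selection.

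The low Fads1 of transgenic 1 was not alone on that array. Of 8126 probes above noise on at least 11 animals, 40 read at least 2-fold below all other animals on transgenic 1, against 0 to 16 on each of the others, and Fads1 had the third largest gap of the 40. By the RefSeq gene table (GRCm38.p6), Fen1 and Rab3il1 lie near Fads1. In transgenic 1 Fen1 read 1365, within the 684 to 1762 of the other animals, whereas Rab3il1 read 172, below their 193 to 928.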
